A study of Mus musculus with 5 samples.

Results

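The genes that encode integrin subunits and laminin chains were described in 5 lines of 6DT1 cells, a mouse mammary carcinoma cell line, after knockdown of *Arid4b*, which encodes a subunit of the mSIN3A histone deacetylase complex. Members were chosen by name. All genes with a symbol of an integrin alpha or beta subunit, or of a laminin alpha, beta or gamma chain, were taken from a table of 19938 genes measured on Affymetrix Mouse Gene ST arrays. The letters of the rule gave 38 genes, and 37 of them encode subunits. These were 18 integrin alpha subunits, 9 integrin beta subunits and 10 laminin chains. The remaining gene, *Itgb3bp*, encodes a centromere protein that was first named for binding an integrin, and it was set apart.

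Integrins are receptors in the plasma membrane, each made of 1 alpha and 1 beta subunit, that hold cells to extracellular matrix or to other cells and pass signals in both directions. Laminins are trimers of an alpha, a beta and a gamma chain and are the adhesive proteins of basement membranes, the thin sheets of matrix under epithelia. In the mammary gland the luminal and myoepithelial cells rest on a laminin-rich basement membrane, to which they attach by laminin-binding integrins in focal contacts and in hemidesmosomes, and loss or remodelling of this contact is a classical subject of studies on invasion.

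All 5 lines were grown from 6DT1 cells and were hybridised to 1 array each. H3 and H4 were transduced with lentiviral pLKO.1 vectors carrying different hairpins against *Arid4b* and formed the *Arid4b* knockdown cohort, with ARID4B protein at 0.19 and 0.15 of the scrambled control by densitometry. The control cohort was H5, which carries another hairpin against *Arid4b* but kept a normal level (1.02), the line with a scrambled hairpin in the same vector (1.00), and untransduced cells (1.09). The 4 transduced lines were selected with puromycin and arrayed as pools of clones, whereas the untransduced cells had neither vector nor drug. Each line is a separate stable line or the parental culture, with no second culture of any line, so a p-value measures only the spread between these lines, which may be technical, and the number of arrays limits its precision. In such bulk samples, fewer cells that express a gene and less RNA per cell cannot be told apart.

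The deposited values are log2 expression values, and a difference of 1 is a factor of 2. Below, values of a gene are given first for H3 and H4, then for the control lines in the order H5, scrambled control, untransduced cells. *Arid4b* itself was measured at 6.88 and 7.35, against 8.24, 8.34 and 8.36, so the arrays went with the labels (log2 difference -1.20 ± 0.15 SE, unadjusted limma p of 0.000767, adjusted p = 0.217 by Benjamini-Hochberg over all genes). The array of H3 stood apart from the other 4. Its median over all probe sets was 6.35 against 6.24 to 6.25 in the others, and its SD over probe sets was 2.25 against 2.29 to 2.30. Several lines often shared a value to the last deposited decimal: at least 2 lines did so in 38.4% of all genes and in 17 of the 37 members, and at least 3 lines did so in 15.3% and in 9 members. The SD of the control lines is then very small for some genes, and a line can lie beyond all control lines by a small margin.

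As a fixed mark for low signal, the level under which 95% of the means of 1027 olfactory receptor genes lay was used (log2 5.97). By this mark 27 of the 37 members were above the olfactory receptor level and 10 were at or under it. The members above it included *Itgb1*, the beta subunit shared by most matrix-binding integrins, at 10.38 to 10.87, *Itgav* at 10.67 to 11.59, *Itga3* at 10.69 to 10.95, *Itga6* at 10.48 to 11.04, *Itgb5*, *Itgb2*, *Lama5*, *Lamc1* and *Lamb1*. The 10 at or under it were *Itga1*, *Itga4*, *Itga9*, *Itgae*, *Itgax*, *Itgb6*, *Itgb8*, *Lama2*, *Lama3* and *Lama4*, all with means under 6.0.

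Between the cohorts, 2 of the 37 members passed an unadjusted p of 0.05 in the limma fit over all genes, and both were lower in the knockdown cohort: *Lamb3*, the beta chain of epithelial laminin, and *Itga8*, an alpha subunit that binds the RGD motif. No member was higher. These are 5.41% of the members, against 12.0% of all 19938 genes called in either direction (4.34% higher and 7.61% lower), so the share of members called was not above that background. After adjustment over all genes no gene passed in this fit (0%), which made 2383 calls at the unadjusted threshold, and 3 genes passed by an unmoderated test that made 1422. With genes of low signal left out 4 genes passed the adjusted threshold, none of them a member. Without H3 or H4 the other was the 1 knockdown array, and members past the adjusted threshold are not counted for those fits. The median log2 difference was 0.06 over the members and 0.03 over all genes. Integrin subunits had a median of 0.07 and laminin chains of 0.06. With 1 knockdown line left out, the spread of the remaining one was taken from the control lines, and more genes passed. Members called in these fits are therefore not read as a result either, and only the size of a member's difference is given here. The difference of *Lamb3* was -1.21 without H3 and -0.88 without H4, and that of *Itga8* was -0.38 and -1.06. Values of all members in each line are shown in the plot of the members by line.

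**Figure D1:**
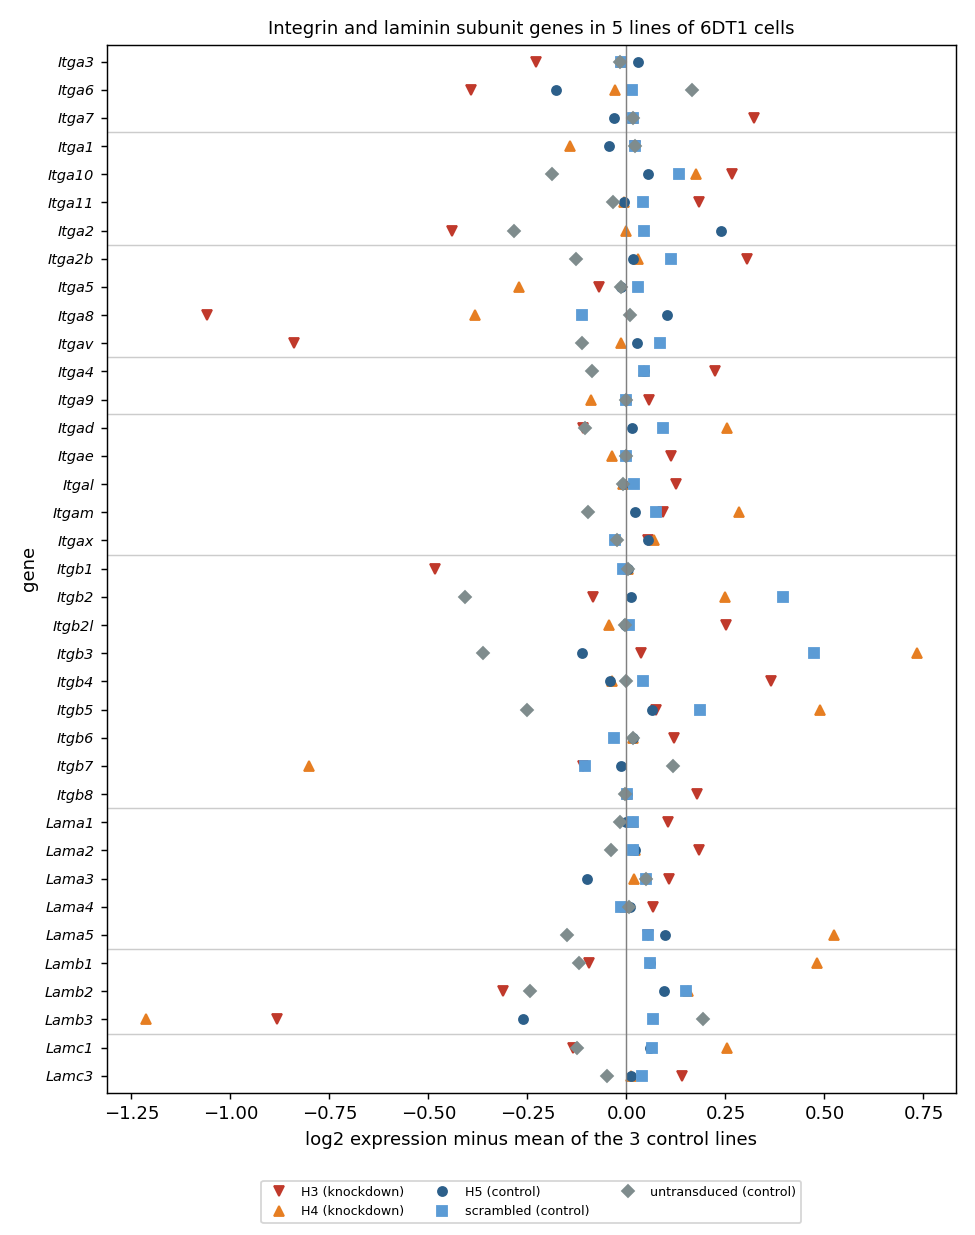
Log2 expression of the 37 integrin and laminin subunit genes in each of the 5 lines, minus the mean of the 3 control lines (x axis), with 1 point per line and genes on the y axis grouped by role from alpha subunits at the top to laminin gamma chains at the bottom. *Lamb3* and *Itga8* are the genes whose knockdown lines both lie far to the left of the control lines, by 0.88 and 1.21 in *Lamb3* and by 1.06 and 0.38 in *Itga8*.

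The promoters of the 2 genes that passed the test are shown first, with that of *Lamb1*, the beta chain of the widespread laminins, beside *Lamb3*. RefSeq listed a promoter for 24 of the 37 members, and each sequence is the stretch of 250 bases before the first listed start in mouse build GRCm38.p6, 5′ to 3′ on the strand of the gene. *Lamb3* lies on the plus strand (chr1:193301744-193301993), *Lamb1* on the plus strand (chr12:31265043-31265292) and *Itga8* on the minus strand (chr2:12301945-12302194). Capitals mark matches to the motifs searched on both strands.
*Lamb3*: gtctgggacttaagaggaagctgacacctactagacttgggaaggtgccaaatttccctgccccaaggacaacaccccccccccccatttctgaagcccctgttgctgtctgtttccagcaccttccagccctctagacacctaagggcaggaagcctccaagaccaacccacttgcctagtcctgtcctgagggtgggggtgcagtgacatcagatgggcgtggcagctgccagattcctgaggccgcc
*Itga8*: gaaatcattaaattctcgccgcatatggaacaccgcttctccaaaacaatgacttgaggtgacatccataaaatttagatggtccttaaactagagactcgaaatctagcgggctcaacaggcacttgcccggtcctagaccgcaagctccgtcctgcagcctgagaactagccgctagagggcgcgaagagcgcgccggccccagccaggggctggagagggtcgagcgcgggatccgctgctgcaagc
*Lamb1*: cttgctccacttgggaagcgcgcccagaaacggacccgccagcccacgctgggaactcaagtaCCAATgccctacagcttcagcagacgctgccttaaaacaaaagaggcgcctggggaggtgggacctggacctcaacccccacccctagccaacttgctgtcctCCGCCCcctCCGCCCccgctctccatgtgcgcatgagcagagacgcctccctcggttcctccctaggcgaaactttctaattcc
The motifs were the GC box (GGGCGG or CCGCCC), the AP-1 site (TGANTCA), the CCAAT box (CCAAT or ATTGG), the TATA box (TATAAA or TTTATA) and the E-box (CACGTG). The *Lamb1* promoter held 2 GC boxes and 1 CCAAT box, and those of *Lamb3* and *Itga8* held none of the 5 motifs in this window. Over the 24 member promoters a GC box was found in 8 (33.3%, against 32.9% of 27025 promoters), a CCAAT box in 3 (12.5%, against 34.5%) and an AP-1 site in 1 (4.17%, against 6.87%). No TATA box (13.0% of all promoters) and no E-box (6.05%) were found in them. The promoters of *Lamb3*, *Itga8* and *Lamb1* were 58.8%, 56.4% and 62% G and C, the median of the 24 was 58% and that of all promoters 52%. A match describes letters in this window and not the binding of a factor.

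Of the laminin chains, *Lamb3* was the one that changed. Its beta3 chain is part of the laminin that anchors epithelial hemidesmosomes. *Lamb3* was measured at 7.42 in H3 and 7.09 in H4, and at 8.05, 8.38 and 8.50 in the control lines. Both knockdown lines lay below all 3 control lines, and the gap from H3 to H5 was larger than the range within either cohort. The log2 difference was -1.05 ± 0.18 (SE, 2 against 3 lines, 95% interval -1.52 to -0.58), a level 2.07-fold lower in the knockdown cohort, with an unadjusted limma p of 0.00263 and adjusted p = 0.267. *Lamb3* passed the unadjusted threshold in the limma fit and in all 15 alternatives to it, with differences between -1.21 and -0.88 when 1 line was left out.

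*Lama3*, which encodes the alpha chain of the same laminin, was at or under the olfactory receptor level, with 6.04 in H3, 5.95 in H4, and 5.83, 5.98 and 5.98 in the control lines. H3 lay just above the control lines and H4 within their range, and the difference was 0.06 ± 0.07 (limma adjusted p = 0.634, 95% interval -0.12 to 0.25).

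The chains of the widespread laminin with alpha5, beta1 and gamma1 were all well above the olfactory receptor level, and none passed the test. *Lama5* was at 10.07 in H3 and 10.54 in H4, against 10.11, 10.07 and 9.87 in the control lines (difference 0.29 ± 0.17, limma adjusted p = 0.491). *Lamb1* was at 9.64 and 10.21, against 9.79, 9.79 and 9.61 (0.19 ± 0.19, limma adjusted p = 0.598). *Lamc1* was at 10.44 and 10.83, against 10.64, 10.65 and 10.46 (0.06 ± 0.14, limma adjusted p = 0.833). In all 3 genes H4 lay above every control line, by 0.25 to 0.52 over their mean, whereas H3 lay within or just below their range. *Lamb2*, the beta chain of synaptic and kidney laminins, had the same order, with 8.86 in H3 and 9.32 in H4 against 9.26, 9.32 and 8.93, and its difference of -0.08 ± 0.19 did not pass the test (limma adjusted p = 0.841).

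**Figure D2:**
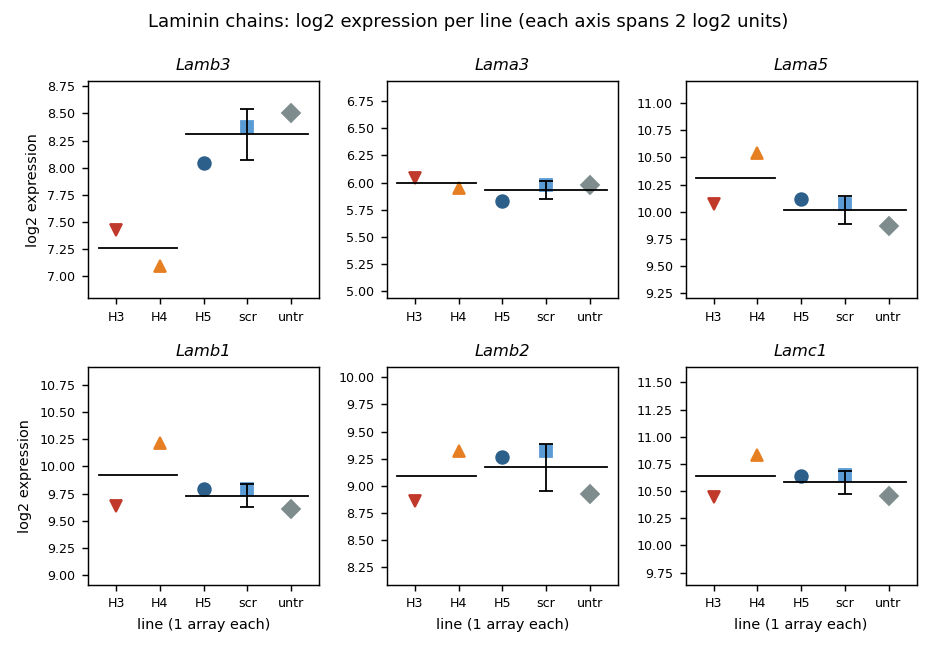
Log2 expression of 6 laminin chain genes in each line (x axis, 1 array per line; scr is the scrambled control and untr untransduced cells), with horizontal lines at the cohort means and an error bar of 1 SD over the 3 control lines. The 2 knockdown lines of *Lamb3* (7.42 and 7.09) lie under all control lines (8.05 to 8.50), and H4 is the highest line of *Lama5*, *Lamb1* and *Lamc1*.

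The other laminin chains were *Lama1*, of early embryonic basement membranes, *Lama2*, of muscle and nerve, *Lama4*, of vessels, and *Lamc3*. Their differences were 0.06, 0.10, 0.03 and 0.08, none past the test (limma adjusted p from 0.494 to 0.713), and in each of them H3 was the highest line by a small margin and H4 lay within the control range.

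Among the alpha subunits, *Itga8* was the one called. The alpha8 subunit pairs with beta1 as a receptor for nephronectin and other RGD proteins and is best known from kidney development. *Itga8* was measured at 6.73 in H3 and 7.41 in H4, and at 7.89, 7.68 and 7.80 in the control lines. Both knockdown lines lay below all control lines, but they were 0.68 apart, while the control lines spanned 0.21. The difference was -0.72 ± 0.22 (95% interval -1.30 to -0.15), a level 1.65-fold lower in the knockdown cohort, with an unadjusted limma p of 0.0243 and adjusted p = 0.352. The call was lost with any control line left out, although the difference changed little and fewer lines were left to measure the spread. Without H5, the scrambled control or untransduced cells the difference was -0.67, -0.78 or -0.72 and the unadjusted limma p was 0.0792, 0.0516 or 0.0716. The call was also lost in an unmoderated test (unadjusted p of 0.0727) run on the same values. With H4 alone against the control lines the difference was -0.38, and with H3 alone it was -1.06.

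The other alpha subunits that bind the RGD motif did not pass the test. *Itgav*, which pairs with several beta subunits to bind vitronectin, fibronectin and latent TGF-beta, was at 10.67 in H3 and 11.50 in H4, against 11.54, 11.59 and 11.40 (-0.43 ± 0.26, limma adjusted p = 0.493). The level in H3 was 0.84 under the control mean, and H4 was within the control range. *Itga5*, whose product with beta1 is the main fibronectin receptor, was at 9.70 and 9.49, against 9.75, 9.79 and 9.75. Both lines lay below the control lines, by 0.07 and 0.27 under their mean, although after quantile normalization H3 lay within their range, and the difference of -0.17 ± 0.07 did not pass (limma adjusted p = 0.461). *Itga2b*, the platelet alpha subunit, differed by 0.17 ± 0.12.

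Laminin-binding alpha subunits did not pass the test either. *Itga6*, which pairs with beta1 or beta4, was at 10.48 in H3 and 10.85 in H4, against 10.70, 10.89 and 11.04 (-0.21 ± 0.16, limma adjusted p = 0.518). *Itga3*, the receptor subunit for epithelial laminins together with beta1, was at 10.69 and 10.91, against 10.95, 10.91 and 10.90 (-0.12 ± 0.08, limma adjusted p = 0.494). In both genes H3 was the lowest line and H4 lay within the control range. *Itga7*, a laminin receptor subunit of muscle, differed by 0.17 ± 0.10, with H3 the highest line at 6.87 and H4 at 6.56, within the control range of 6.51 to 6.56.

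Of the collagen-binding alpha subunits, *Itga2*, found in many epithelia, was at 7.70 in H3 and 8.14 in H4, against 8.38, 8.18 and 7.86, and its control lines were themselves 0.52 apart (-0.22 ± 0.21, limma adjusted p = 0.590). *Itga10* was at 6.90 and 6.81, against 6.68, 6.76 and 6.44, with both knockdown lines above the control lines under all 3 scalings tried and a difference of 0.22 ± 0.11 that did not pass (limma adjusted p = 0.484). *Itga1* and *Itga11* differed by -0.06 and 0.09. *Itga4* and *Itga9*, whose products bind fibronectin, tenascin or vascular adhesion molecules, differed by 0.13 and -0.02 at levels under the olfactory receptor level.

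The 5 alpha subunits of leukocyte integrins, *Itgal*, *Itgam*, *Itgax*, *Itgad* and *Itgae*, differed by 0.04 to 0.19, and none passed the test. *Itgam* had both knockdown lines above the control lines, at 6.05 and 6.24 against 5.98, 6.03 and 5.86, but H3 lay within the control range when array medians were subtracted and after quantile normalization. *Itgad* had 2 probe sets, the only member with more than 1. The one of higher mean, used here, gave 0.07 and the other 0.18, and their average passed the test as higher.

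None of the 9 beta subunits passed the test. *Itgb1*, the common partner of alpha3, alpha5, alpha6, alpha8 and alphav, was at 10.38 in H3 and 10.87 in H4, against 10.87, 10.86 and 10.87 in the control lines, whose SD was 0.008. H4 could not be told from the control lines, while H3 was 0.48 under their mean, and 0.59 and 0.41 under it after median subtraction and quantile normalization. The cohort difference of -0.24 ± 0.15 (limma adjusted p = 0.494) is thus that of 1 line. *Itgb7*, a beta subunit of lymphocyte homing receptors, showed the reverse order, with 8.86 in H3 and 8.17 in H4 against 8.95, 8.86 and 9.09. Here H4 was 0.80 under the control mean and H3 just under the lowest control line, and within the control range after quantile normalization (-0.46 ± 0.22, limma adjusted p = 0.480).

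The beta subunits that pair with alphav were among these. *Itgb3* was at 9.13 in H3 and 9.83 in H4, against 8.98, 9.57 and 8.73, and its control lines spanned 0.83, more than the cohort difference of 0.39 ± 0.34 (limma adjusted p = 0.564). *Itgb5* was at 10.43 and 10.85, against 10.43, 10.55 and 10.11 (0.28 ± 0.19, limma adjusted p = 0.501), and H4 was the highest line. *Itgb6*, at 4.45 and 4.35 against 4.35, 4.30 and 4.35, and *Itgb8*, at 5.32 and 5.14 against 5.14, 5.14 and 5.13, differed by 0.07 and 0.09 under the olfactory receptor level.

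*Itgb4*, the hemidesmosome subunit that pairs only with alpha6, was at 7.08 in H3 and 6.67 in H4, against 6.67, 6.75 and 6.71, so that H3 was the highest line and the cohort difference was 0.16 ± 0.13 (limma adjusted p = 0.533). *Itgb2*, the beta subunit of leukocyte integrins, was at 10.39 and 10.72, against 10.49, 10.87 and 10.07, and the knockdown lines lay inside the control range (0.08 ± 0.27, limma adjusted p = 0.883). *Itgb2l*, its close relative, differed by 0.10. *Itgb3bp* was at 4.03 and 3.88, against 4.23, 4.03 and 4.09 (-0.16 ± 0.09, limma adjusted p = 0.491).

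**Figure D3:**
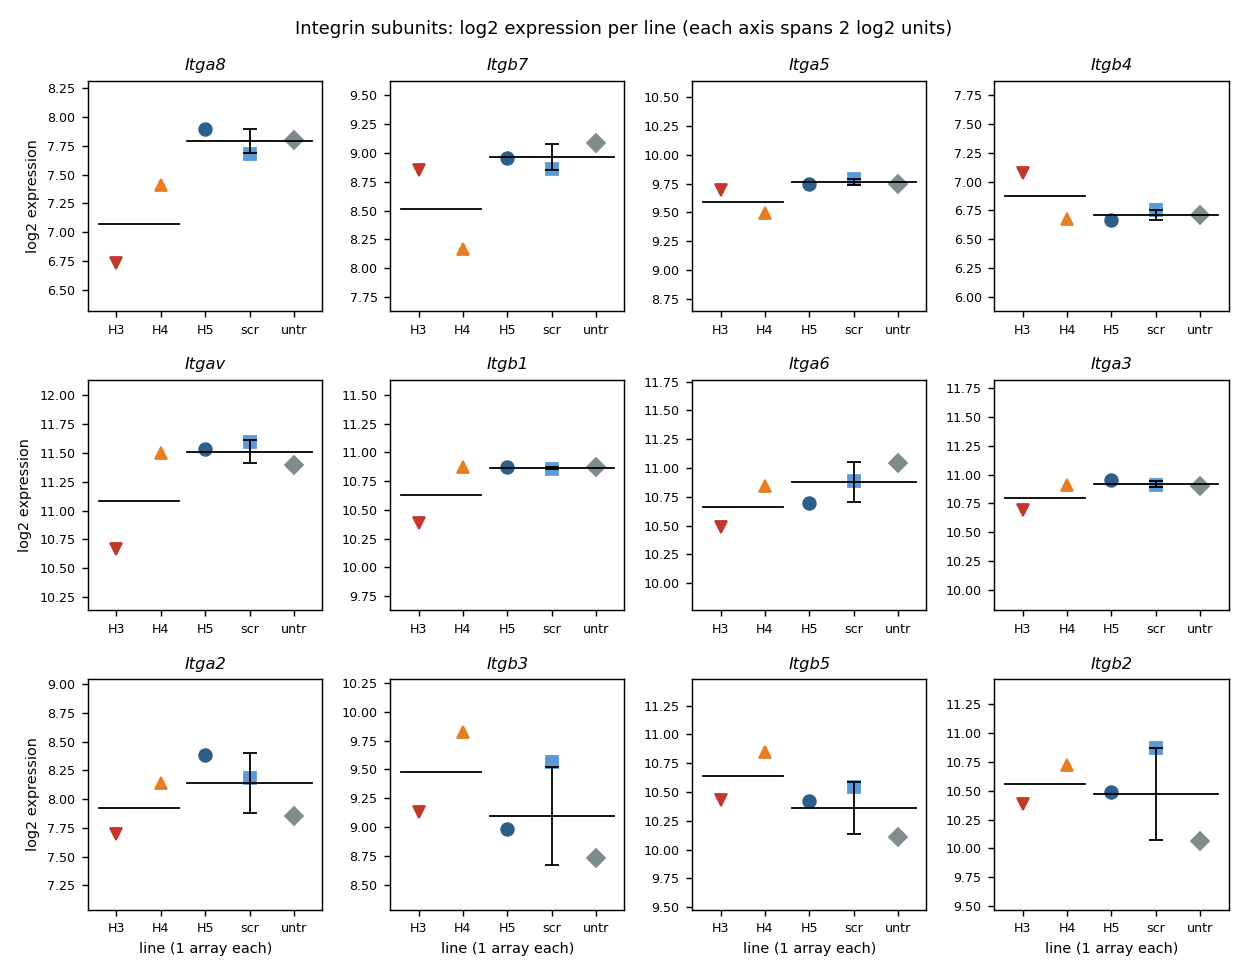
Log2 expression of 12 integrin subunit genes in each line (x axis, 1 array per line; scr is the scrambled control and untr untransduced cells), with horizontal lines at the cohort means and an error bar of 1 SD over the 3 control lines; each y axis spans 2 log2 units. *Itga8* is the only one of these with a difference past the test, *Itgav* and *Itgb1* are low in H3 alone, *Itgb7* is lowest in H4, and the control lines of *Itgb3* and *Itgb2* are spread over 0.83 and 0.80.

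The H3 and H4 lines were then each set against the control lines, as a description, since each line has 1 array. H3 lay above all control lines in 18 members (48.6%, against 46.9% of all genes) and below them in 12 (32.4%, against 26.6%). H4 lay above them in 10 (27.0%, against 25.7%) and below them in 8 (21.6%, against 27.7%). Both knockdown lines lay below all control lines in 4 members, *Lamb3*, *Itga8*, *Itgb7* and *Itga5* (10.8%, against 13.5% of all genes), and above them in 2, *Itga10* and *Itgam* (5.41%, against 13.9%). Scaling moved these counts, and those of all genes with them. With array medians subtracted from all values, H3 lay above the control lines in 11 members (29.7%, against 28.0% of all genes). H4 did so in 18 (48.6%, against 42.9%). H3 lay below them in 17 (45.9%, against 49.8%). Both knockdown lines then lay above them in 6 members and below them in 6, with no count over all genes to set beside these. After quantile normalization H3 lay below the control lines in 9 members (24.3%, against 27.2% of all genes).

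The knockdown lines also differed from each other. The median size of the difference between them was 0.27 in the members and 0.14 over all genes. Among genes above the olfactory receptor level it was 0.36 against 0.17. The median range of the control lines was 0.13 in the members and 0.12 over all genes, and 0.20 against 0.16 above that level. These ranges are over 3 lines and the differences over 2. These medians were not tested. H4 exceeded H3 in 16 of 37 members (43.2%, against 36.7% of all genes), with the widest gaps in *Itgav* (0.83), *Itgb3* (0.70), *Itga8* (0.68), *Lamb1* (0.58) and *Itgb1* (0.49). H3 exceeded H4 by 0.69 in *Itgb7* and by 0.40 in *Itgb4*. In 3 members, *Lamb2*, *Lamc1* and *Itgad*, H4 lay above and H3 below all control lines (8.11%, against 4.94% of all genes), although the H3 values of *Lamb2* and *Lamc1* lay within the control range after quantile normalization. The other probe set of *Itgad* had both knockdown lines above the control lines, at 5.85 and 5.56 against 5.50, 5.51 and 5.54. In 3 other members, *Itga9*, *Itgae* and *Itgb2l*, H3 lay above and H4 below all control lines, which shared their value or nearly so.

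**Figure D4:**
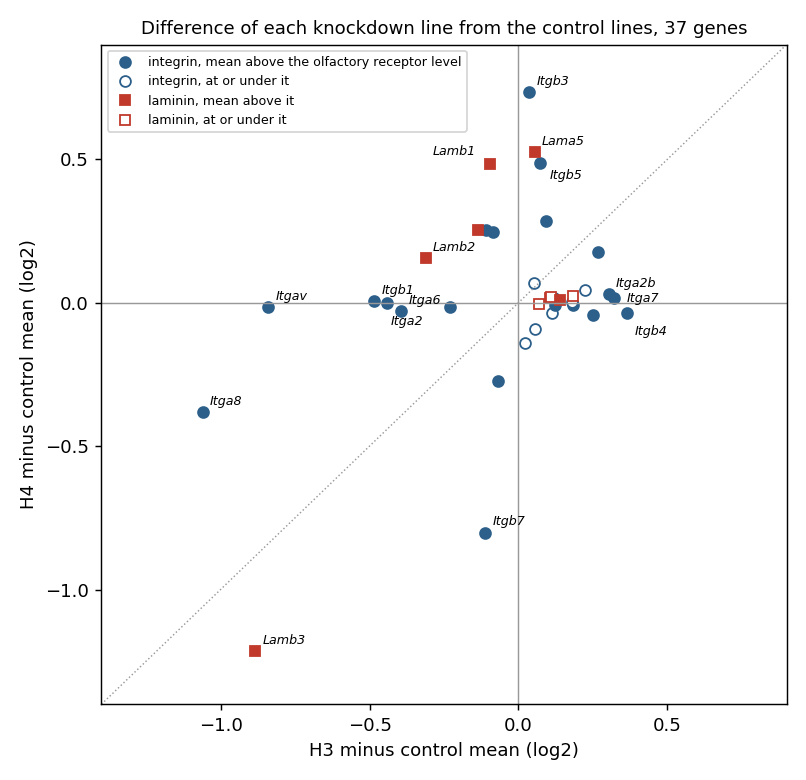
Difference of H3 (x axis) and of H4 (y axis) from the mean of the 3 control lines in log2 units for the 37 members, with filled points for genes above the olfactory receptor level, open points for genes at or under it, and a dotted line of equal differences. *Lamb3* and *Itga8* lie at the lower left, *Itgav*, *Itgb1*, *Itga2* and *Itga6* lie along the line of no difference in H4, and *Itgb3*, *Lama5*, *Itgb5* and *Lamb1* lie near no difference in H3 and 0.48 to 0.73 up in H4.

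The side on which H3 fell in members with low signal depended on the scaling. On the deposited values, of the 10 at or under the olfactory receptor level, H3 lay above all control lines in 8 (80.0%), and so it did in 65.7% of all genes at or under that level. The median difference of H3 from the control mean was 0.11 in these members and 0.09 in all such genes, and that of H4 was 0.01 in both. Of the same 10 members, H3 lay above the control lines in 5 and below them in 4 with array medians subtracted. After quantile normalization it lay above them in 5 and below them in 1. All genes of low signal were not counted under these scalings. Among the 27 members above the level, on the deposited values, H3 lay above the control lines in 10 (37.0%, against 36.5% of all genes above the level). It lay below them in 12 (44.4%, against 38.2%).

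Within the control cohort, untransduced cells stood lowest for a number of members. Untransduced cells were the lowest control line in 20 of 37 members (54.1%, against 33.5% of all genes), and lay below all 4 puromycin-selected lines in 14 (37.8%, against 24.5% of all genes). The 14 were *Itga10*, *Itga11*, *Itga2b*, *Itga4*, *Itgam*, *Itgb2*, *Itgb3*, *Itgb5*, *Itgb8*, *Lama1*, *Lama2*, *Lama5*, *Lamb1* and *Lamc3*. The scrambled control exceeded untransduced cells by 0.83 in *Itgb3*, by 0.80 in *Itgb2* and by 0.44 in *Itgb5*, and H5 exceeded them by 0.25, 0.42 and 0.32. *Lamb3* and *Itga6* went the other way, with H5 0.45 and 0.34 below untransduced cells. With 1 untransduced array this is a description, and vector, selection and culture cannot be told apart in it.

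The genes that work with integrins and laminins were read from the same fit, by lists of known partners. Shares of called genes in these lists stand against 12.0% of all genes, and 17.1% of the genes above the olfactory receptor level, where most of the listed genes lay. Of the 44 measured genes of focal adhesions and integrin activation, 2 were higher, 6 lower and 36 did not pass (18.2% called), and 42 of the 44 were above the olfactory receptor level, with a median difference of -0.02. *Lims1*, an adaptor that binds integrin-linked kinase, was at 9.55 in H3 and 9.14 in H4, against 9.77, 9.64 and 9.81 (-0.40 ± 0.14, unadjusted limma p of 0.0415, adjusted p = 0.396), whereas its relative *Lims2* was at 8.42 and 8.26, against 8.07, 8.03 and 7.71 (0.41 ± 0.13, unadjusted limma p of 0.0327, adjusted p = 0.372). *Flna*, the actin crosslinker filamin A, fell by 0.40 on the log2 scale, *Pdlim7* by 0.40 and *Tns2*, a tensin, by 0.32. *Git1*, a scaffold of focal adhesion turnover, rose by 0.35. *Tln2* and *Ilk*, the integrin-linked kinase itself, also fell, by 0.24 and 0.17 on the log2 scale. These 8 were chosen for passing the test on the same values, and in all of them the knockdown lines lay beyond all control lines on the same side.

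Hemidesmosome genes and the tetraspanins that bind integrins held 11 measured genes, and 1 passed (9.09%), with 10 of the 11 above the olfactory receptor level. *Cd151*, the tetraspanin partner of laminin-binding integrins, was at 10.84 in H3 and 10.72 in H4, against 10.97 to 11.23 in the control lines (-0.29 ± 0.10, unadjusted limma p of 0.0388, adjusted p = 0.389). The median of this list was 0.04.

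Basement membrane partners and laminin receptors other than integrins held 26 genes, of which 3 were higher, 2 lower and 21 not past the test (19.2% called), with 23 above the olfactory receptor level and a median of 0.09. *Hspg2*, which encodes perlecan, was at 9.51 in H3 and 9.95 in H4, against 9.37, 9.26 and 9.15 (0.47 ± 0.15, unadjusted limma p of 0.0308, adjusted p = 0.367). *Agrn*, encoding the proteoglycan agrin, rose by 0.22 and *Col4a5*, a chain of collagen IV, by 0.33. *Tinagl1*, a secreted matrix protein, was at 11.28 and 11.32, against 11.72, 11.58 and 11.81 (-0.40 ± 0.08, unadjusted limma p of 0.00552, adjusted p = 0.292). *Dag1*, whose product dystroglycan is the main laminin receptor outside the integrins, fell by 0.22 on the log2 scale, at 10.17 and 10.33 against 10.46, 10.48 and 10.47.

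Other ligands of integrins held 32 measured genes, with 1 higher, 2 lower, 29 not past the test (9.38% called), 21 above the olfactory receptor level and a median of 0.08. *Ccn3*, a matricellular protein, was at 6.56 in H3 and 6.63 in H4, against 8.03, 7.33 and 7.52 (-1.03 ± 0.22, unadjusted limma p of 0.00686, adjusted p = 0.292). *Edil3*, an RGD protein bound by alphav integrins, was at 5.46 and 5.20, against 6.08, 6.31 and 5.87 (-0.76 ± 0.16, unadjusted limma p of 0.00645, adjusted p = 0.292), with a mean at or under the olfactory receptor level. *Tgfb3* rose by 0.51. Named after its values were seen, *Fn1*, which encodes fibronectin, did not pass (-0.27, limma adjusted p = 0.753): it was at 7.75 in H3 and 9.20 in H4, against 8.71, 8.90 and 8.63, so H3 and H4 lay on opposite sides of the control lines. Also named afterwards, *Npnt*, the nephronectin bound by alpha8 integrin, was at 7.95 and 8.11, against 8.26, 8.61 and 8.25 (-0.34, limma adjusted p = 0.441). Over the 4 lists 6 genes were higher and 11 lower, none of them past an adjusted p of 0.05.

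**Figure D5:**
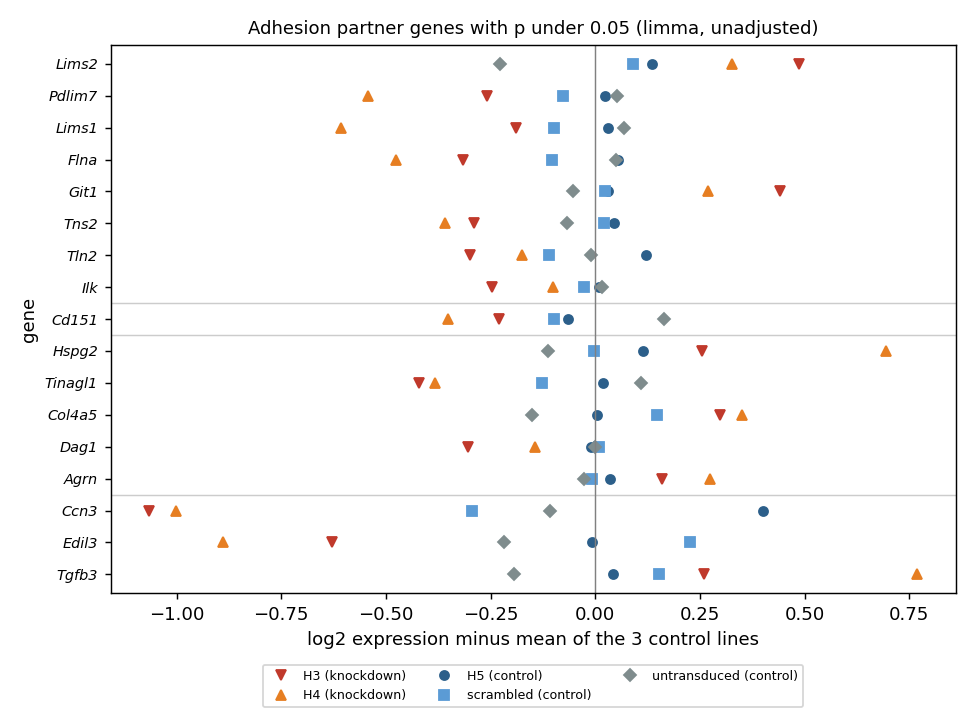
Log2 expression minus the mean of the 3 control lines (x axis) in each of the 5 lines for the 17 partner genes past an unadjusted limma p of 0.05, grouped from top to bottom into focal adhesion, tetraspanin, basement membrane and other ligand genes. These genes were chosen for passing the test, and in each of them both knockdown lines lie on the same side of all control lines, from -1.03 in *Ccn3* to 0.51 in *Tgfb3* as the cohort difference.

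Markers of cell types were read in the same arrays. Of 11 mammary epithelial markers, 5 were above the olfactory receptor level, among them *Krt8* at 11.81 to 12.26 and *Krt18* at 11.57 to 11.71, while *Epcam* (5.61 to 5.75), *Grhl2* and *Esrp1* were at or under it. None of the 11 passed the test, and the sum of their linear values was 8409 and 7254 in H3 and H4 against 8322 to 8805 in the control lines. Of 8 basal and myoepithelial markers 5 were above the level, with sums of 715 and 603.2 against 643.8 to 666.2. Of 11 leukocyte markers 3 were above it, *Cd14*, *Cd3e* (6.16 to 6.48) and *Coro1a* (5.95 to 6.19). *Cd14*, the highest of the 11, was at 8.10 in H3 and 8.69 in H4, against 8.44, 8.60 and 8.18. The sums over the 11 were 766.1 and 838 against 723.5 to 813.1. *Ptprc* (4.98 to 5.15) was under the olfactory receptor level in every line. So was *Csf1r*, the 1 marker that passed the test, as higher (5.54 and 5.40 against 5.26 to 5.30). All 5 platelet markers were above the level, with sums of 557.4 and 538.9 against 449.9 to 526.9, and of 12 fibroblast and endothelial markers 5 were, with sums of 996.3 and 904 against 834.3 to 868.9. In the platelet list and in that of fibroblast and endothelial markers the sums of both knockdown lines exceeded those of all control lines, and no gene of them passed the test. For both lists the sums were taken on the deposited values only, where H3 had the higher array median (6.35 against 6.24 to 6.25). In H4 the markers of these lists did not rise together. H4 lay above all control lines in 1 of the 5 platelet markers, *Pf4* (7.44 against 6.25 to 7.15), and below them in 2. Of the 12 fibroblast and endothelial markers it lay above them in 4, with *Pdgfra* at 7.36 against 6.88 to 7.01, and below them in 2. The part of these levels in the values of the integrin and laminin genes was not tested.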

How the data were processed

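Total RNA of the 5 lines was hybridised to Affymetrix Mouse Gene ST arrays. The deposited values are log2 expression, normalised by the authors in Partek; the submitters' processing notes also name RMA, with versions not given in the sources used here. Of 35556 probe sets, the platform annotation gave 1 symbol to 21789, several to 1621 and none to 12146; the gene IDs of 21698 of the first were found in RefSeq. Per gene the probe set of highest mean was used (999 of 19938 genes had several), and the 3 probe sets shared by *Rpl35* and *Itgam* were not used. Cohorts were compared with limma 3.58.1 (lmFit and eBayes, 3 residual and 1.58 prior degrees of freedom) in R 4.3.3, with Benjamini-Hochberg adjustment over all genes, and ± values are SE. The threshold of the study, an unadjusted p of 0.05, made the calls. The fit was tested on simulated data. Members, lists and tests were chosen with earlier results of these data known. Lines were given for members past the test, for members with both lines beyond the controls and a difference of at least 0.3, and for subunits of the epithelial and alpha5 laminins and their receptors; up to 6 called genes were named per partner list. Alternatives were another scaling, filter, probe set rule, test, covariate or array weights, and leaving out each line. Promoters came from RefSeq (GRCm38.p6), and figures from matplotlib 3.10.9. No protein sequence was used here.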

Additional observations from a re-analysis of the deposited data

How the results depend on the processing

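The call of *Lamb3* held under every alternative run and that of *Itga8* did not. Of the 17 members followed one by one, 13 kept their direction throughout. The differences turned in *Itgb1* (0.0046) and *Itgb4* (-0.0365) without H3 and in *Lamb1* (-0.0944) without H4, with ranges of -0.4846 to 0.0046, -0.0365 to 0.3653 and -0.0944 to 0.4824 when a line was left out. *Lamc1* ranged from -0.1359 without H4 to 0.2537 without H3, and turned to -0.0034 both without untransduced cells and with puromycin selection as a covariate, which in this design is the same fit. The cause was not tested. No paired analysis was possible because the lines carry no replicate numbers in the labels and those used here follow only the order of the samples.

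Members called lower (2) became 4 with array medians subtracted, where *Itga5* and *Itgb7* joined, 1 with the puromycin covariate, 1 in the unmoderated test and 1 to 6 when a line was left out. Members called higher (0) became 1 with probe sets averaged and 0 to 12 when a line was left out, with 12 higher and 5 lower without H4 and 2 higher and 6 lower without H3. Without H3 or H4 the spread was taken from the control lines, and calls rose over all genes too. These counts of members are therefore not read as a result on the members. The median difference of the members (0.06) was 0.0184 with array medians subtracted, 0.0352 after quantile normalization, and 0.0106 to 0.0888 when a line was left out. Further comparisons, with the scaling changed before each knockdown line was set against the control range, were chosen after seeing the data: with array medians subtracted H3 lay above the control lines in 11 members and H4 in 18, and in 28.0% and 42.9% of all genes.

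Over all genes, 866 higher calls became 509 with array medians subtracted, 382 with array weights, 508 with the puromycin covariate, 1300 after quantile normalization and 408 to 4901 when a line was left out. The 1517 lower calls became 905 with array weights, 1011 with the puromycin covariate, 835 in the unmoderated test and 776 to 1986 when a line was left out. The share of calls that were higher was 36.3%, and 20% and 49.4% with array medians subtracted and after quantile normalization. Partner genes called higher (6) became 3 with array medians subtracted, 2 with array weights, 10 after quantile normalization and 3 to 32 when a line was left out, and those called lower (11) became 7 with the puromycin covariate, 7 in the unmoderated test and 6 to 18 when a line was left out. Signal limits the 10 members at or under the olfactory receptor level, where a change could not be told from the background of the array.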
